A study of Rattus norvegicus with 4 samples.

Results

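Amino acid breakdown enzymes of the rat liver are described here, for animals kept under sevoflurane or desflurane for 6 h. A list of 39 genes was used, covering the breakdown of tyrosine, tryptophan, histidine, serine and threonine, the branched chain amino acids, lysine, proline and hydroxyproline, alanine and aspartate, methionine and cysteine, and glyoxylate and D-amino acids. Members were found by their gene symbol in the 4 expression tables, and 37 of the 39 had a row, out of 16992 genes in all; *Uroc1* and *Prodh* were not analysed here. The animals were wild-type male Wistar rats, purchased at 6 weeks of age, which had 2 h without food and water and were then anesthetized with sevoflurane at 4.5% or desflurane at 6%, carried by 50% oxygen at 3 L/min. Livers were taken either after 6 h of anesthesia, or, in the control of each agent, as soon as the rat lost consciousness (under 1 min), and all rats were sacrificed at about the same time of day. RNA sequencing was done on 1 liver for each of the 4 conditions, so there were no replicates, no test could be made, and every fold change below compares 1 animal with another. Each control rat had also inhaled its agent briefly, and there was no liver without anesthetic. The 6 h animals were longer without food than the controls as well as longer under anesthesia, and these 2 differences cannot be told apart. The agents, both fluorinated ethers, were given at different concentrations, so their values are set side by side.

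The liver removes the amino groups of amino acids by transamination or deamination and passes the carbon skeletons on to glucose, ketone bodies or the citric acid cycle, while the nitrogen goes to urea. Several of these enzymes, such as tyrosine aminotransferase, tryptophan dioxygenase and serine dehydratase, are textbook examples of liver genes controlled by glucocorticoids, glucagon and feeding. Methionine takes a path of its own, in which it is activated to S-adenosylmethionine, used for methylation, and then either remade from homocysteine with betaine or passed on to cysteine by transsulfuration.

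Promoter sequences are shown for 5 members, *Got1*, *Bhmt*, *Aass*, *Mat1a* and *Tat*, because for the first 4 both 6 h livers exceeded both controls by more than 1.5-fold under each scaling used (TPM as deposited, TPM after median-of-ratios scaling, and FPKM), and *Tat* is the classic hormone-controlled gene of the group. They are the 250 bases upstream of the gene start, 5′ to 3′ on the strand of the gene, from RefSeq on the GRCr8 build, which differs from the rn6 build of the expression tables. The positions are chr1:252329872-252330121 (minus strand) for *Got1*, chr2:26614430-26614679 (minus strand) for *Bhmt*, chr4:52628812-52629061 (minus strand) for *Aass*, chr16:17016918-17017167 (plus strand) for *Mat1a*, and chr19:54856354-54856603 (plus strand) for *Tat*. Capitals mark the motif matches described in the next paragraph.
Got1: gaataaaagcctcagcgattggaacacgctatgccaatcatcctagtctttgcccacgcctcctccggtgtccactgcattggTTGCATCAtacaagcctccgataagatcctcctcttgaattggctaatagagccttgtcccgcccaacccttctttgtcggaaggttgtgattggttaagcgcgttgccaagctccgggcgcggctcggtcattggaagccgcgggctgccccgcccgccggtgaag
Bhmt: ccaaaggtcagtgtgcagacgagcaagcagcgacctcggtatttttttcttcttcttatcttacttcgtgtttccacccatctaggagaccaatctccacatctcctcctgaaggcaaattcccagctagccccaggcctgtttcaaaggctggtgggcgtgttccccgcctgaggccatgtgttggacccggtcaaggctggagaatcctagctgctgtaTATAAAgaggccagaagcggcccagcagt
Aass: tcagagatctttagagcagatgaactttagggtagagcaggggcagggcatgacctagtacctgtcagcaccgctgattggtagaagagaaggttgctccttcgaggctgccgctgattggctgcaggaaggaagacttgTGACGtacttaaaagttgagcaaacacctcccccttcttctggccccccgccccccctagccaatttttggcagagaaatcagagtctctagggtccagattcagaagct
Mat1a: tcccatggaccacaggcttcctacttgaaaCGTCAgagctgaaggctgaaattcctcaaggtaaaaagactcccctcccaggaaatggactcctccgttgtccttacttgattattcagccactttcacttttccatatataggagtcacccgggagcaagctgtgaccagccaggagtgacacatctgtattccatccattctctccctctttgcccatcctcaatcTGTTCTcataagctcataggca
Tat: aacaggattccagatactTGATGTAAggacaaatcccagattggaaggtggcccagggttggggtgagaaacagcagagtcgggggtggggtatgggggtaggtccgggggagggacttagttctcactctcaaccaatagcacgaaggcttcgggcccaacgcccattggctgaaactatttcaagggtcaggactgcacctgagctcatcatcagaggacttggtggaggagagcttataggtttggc

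The motifs were chosen after the expression values were seen, and were searched on both strands in the 29 members with a sequence and in all 33469 promoters of the same length. The letters TGATGNAA, a composite site bound by ATF4 and C/EBP factors, were found on the minus strand of *Got1*, 167 to 160 bases before its start, and on the plus strand of *Tat*, 232 to 225 bases before its start. These were the only 2 of the 29 members with that motif, which 3.4% of all promoters held. The core TGACG of the cAMP response element lay 110 to 106 bases before the start of *Aass* and, on the minus strand, 220 to 216 bases before that of *Mat1a*, and was held by 3 of the 29 members and 18.2% of all promoters. The glucocorticoid receptor core TGTTCT lay 22 to 17 bases before the start of *Mat1a* and was held by 5 members and 17.5% of all promoters. *Bhmt* had a TATA box, TATAAA, 29 to 24 bases before its start, and was 1 of 4 members with these letters, which 12.9% of all promoters held. The FOXO motif TGTTTAC was found in 0 of the 29 members and in 3.21% of all promoters. A match is only a run of letters in this window, and binding of these factors was not measured.

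Expression was read as TPM, an abundance corrected for library size and transcript length, so levels can be compared between genes. Comparisons between livers also depended on scaling, since the median-of-ratios factors of the deposited values ran from 0.963 to 1.052. Between 4.47 and 5.40 Gb of sequence was aligned to each liver, and the median read coverage of the members was 231 to 252. All 37 members were above 2 TPM in all 4 livers and 34 were above 20 TPM. The least covered members were *Bcat2* and *Acmsd*, with a coverage as low as 3.81 and 4.60, so their ratios carry more counting error than those of the others. Each of 8 hepatocyte markers was present in every liver, with summed TPM values between 146979 and 163186. All 8 macrophage markers were lower after 6 h of sevoflurane, with sums of 648 in the control and 419 at 6 h, while 7 of 8 were higher with desflurane (505 and 617), and none was at 0. Pancreatic acinar markers summed to 38.6 TPM in the sevoflurane control and to 0.521, 1.42 and 3.33 TPM in the sevoflurane 6 h, desflurane control and desflurane 6 h livers, where 3, 4 and 5 of the 8 markers were at 0. The part of these other cells in the values of the members was not tested. In bulk liver RNA, fewer cells of a type and less RNA per cell cannot be told apart.

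A gene was called upregulated or downregulated when TPM was above 2 in the higher of the livers compared and the ratio between them was above 2. Here and below, a share of all genes called is over the genes above 2 TPM in either liver compared. These were 9754 for sevoflurane and 9855 for desflurane against the own control, out of the 16992. Sevoflurane upregulated 4 of the 37 members (10.8%), *Aass*, *Bhmt*, *Got1* and *Sds*, beside 2.23% of all genes, and downregulated 0, beside 3.3% of all genes. Desflurane upregulated 5 members (13.5%), *Bhmt*, *Got1*, *Mat1a*, *Sds* and *Tdo2*, beside 2.79% of all genes, and downregulated 0, beside 1.48%. *Bhmt*, *Got1* and *Sds* were common to both agents, which is 3 of 4 for sevoflurane and 3 of 5 for desflurane. Against the control of the other agent, 5 members were higher with sevoflurane (*Bhmt*, *Ftcd*, *Got1*, *Sds* and *Tat*, beside 2.52% of all genes) and 1 was lower (*Cth*, beside 2.59%). For desflurane, 4 were higher against the sevoflurane control (*Aass*, *Bhmt*, *Got1* and *Mat1a*, beside 2.84% of all genes) and 0 were lower, beside 1.58%. Between the controls themselves, 0 members differed more than 2-fold in either direction, beside 1.17% of all genes higher and 1.17% lower in the desflurane control.

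The other 28 of the 37 members passed 2-fold in none of these comparisons with a control. Over all 37, the median log2 change, calculated with a pseudocount of 1 TPM, was 0.06 with sevoflurane and 0.19 with desflurane against the own control, beside 0.05 and 0.11 for all genes tested. With the other control the medians were 0.20 and 0.13, beside 0.06 and 0.10. Because the median of all genes was above 0 with desflurane, the TPM values were also divided by median-of-ratios factors, which lowered it by 0.12 on the log2 scale. Members higher and lower with desflurane than in its control were 29 and 8 before and 23 and 14 after that scaling, and with sevoflurane 19 and 18 both times. Over all genes the calls with desflurane were 275 up and 146 down before and 197 and 196 after, and against the sevoflurane control 280 and 156 before and 208 and 200 after.

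**Figure D1:**
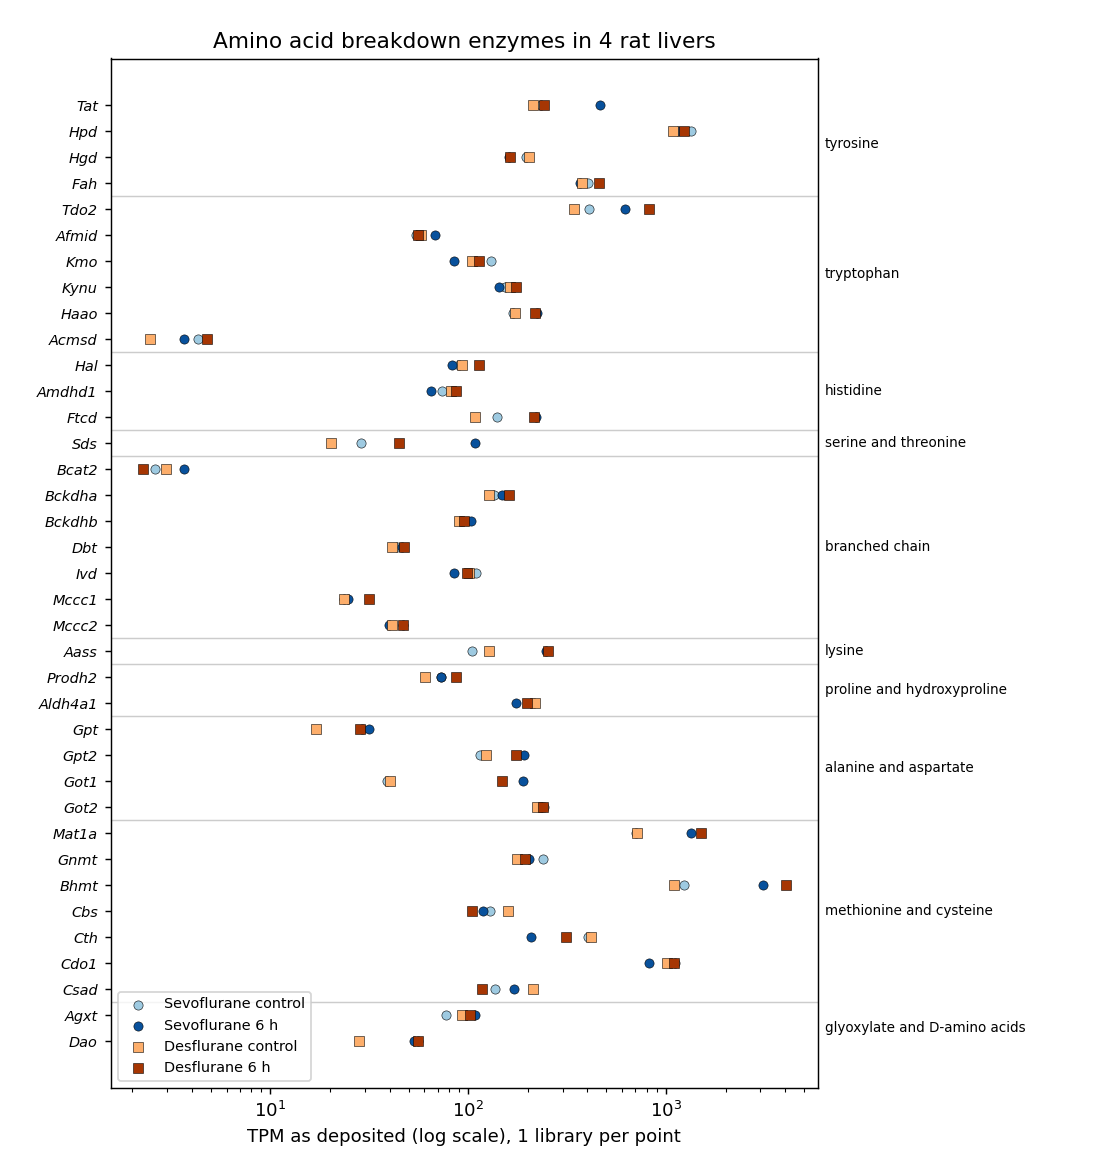
TPM values (log scale, as deposited) of the 37 amino acid breakdown enzymes in the 4 livers, with 1 point per library and genes grouped by amino acid. For *Got1*, *Bhmt*, *Mat1a* and *Aass* the light control points and the dark 6 h points form separate pairs, while for most other genes the 4 points lie close together or mixed.

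The difference between the 2 controls served as the only available view of the spread between animals, although the controls also differed in agent. The controls differed by a median of 1.103-fold over the members and 1.12-fold over 9987 genes above 2 TPM in any liver and above 0 in both controls. Only 4 members differed by more than 1.5-fold between controls, namely *Dao* (1.99-fold), *Acmsd* (1.75-fold) and *Gpt* (1.70-fold), lower in the desflurane control, and *Csad* (1.56-fold), higher in it. Both 6 h livers were above both controls for 15 members (40.5%), beside 33.3% of all genes, and below both for 5 members (13.5%), beside 13.3%. The shares of all genes beyond both controls are over the 9993 genes above 2 TPM in any liver. The members' shares were near those of all genes and are no result about the enzymes. After median-of-ratios scaling the members were 12 above and 7 below, and all genes 2227 above and 2277 below in place of 3329 and 1332. With a margin of more than 1.5-fold, 7 members (18.9%) remained above both controls, *Aass*, *Bhmt*, *Ftcd*, *Got1*, *Mat1a*, *Sds* and *Tdo2*, beside 1.76% of all genes, and 0 were below, beside 1.04%. Under the scaling 4 of these 7 stayed beyond the margin, *Aass*, *Bhmt*, *Got1* and *Mat1a*, and the counts over all genes went from 176 above and 104 below to 128 and 149.

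**Figure D2:**
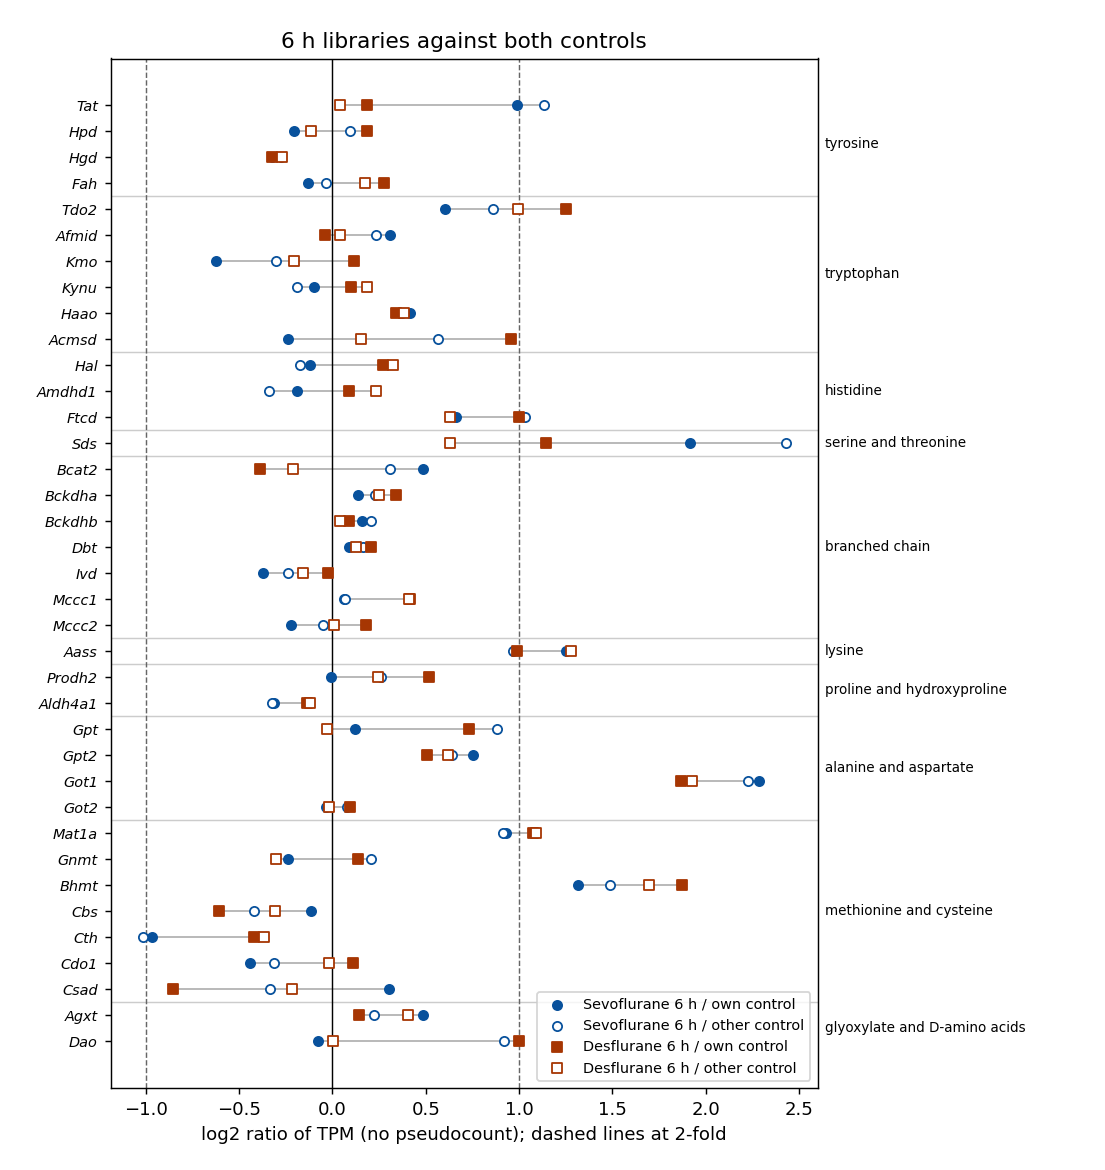
Log2 ratio of TPM of each 6 h liver to its own control (filled) and to the control of the other agent (open) for the 37 members; the dashed lines are at 2-fold. *Got1* and *Bhmt* lie to the right of the 2-fold line with all 4 points, and the wide lines of *Dao*, *Acmsd* and *Csad* show how far their change depends on the control used.

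In the methionine group, the step that makes S-adenosylmethionine and the step that remakes methionine were higher at 6 h, and the transsulfuration enzymes were not among the members called with either agent against its own control. *Bhmt* (rn6 chr2:23236573-23256158, minus strand), betaine-homocysteine methyltransferase, stood at 1239 TPM in the control and 3085 TPM at 6 h with sevoflurane, and at 1099 and 4019 TPM, respectively, with desflurane. It was thus upregulated 2.49-fold by sevoflurane and 3.66-fold by desflurane, was the most abundant member at 6 h, and its lowest 6 h value was 2.49-fold the highest control value. *Mat1a* (rn6 chr16:18690649-18709135, plus strand), the liver methionine adenosyltransferase, had values of 705, 1343, 713 and 1502 TPM in the same order. Its controls differed by 1.01-fold, and it was 1.90-fold higher with sevoflurane and 2.11-fold higher with desflurane, the latter falling to 1.93-fold after scaling. Both 6 h livers lay above both controls for *Bhmt* and for *Mat1a*.

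The genes that lead homocysteine toward cysteine come next. *Cth* (rn6 chr2:264267029-264293016, minus strand), cystathionine gamma-lyase, had 405 and 207 TPM with sevoflurane (control, then 6 h) and 420 and 314 TPM with desflurane. Both 6 h values were below both controls, 1.95-fold and 1.34-fold below their own. The 1.95-fold difference with sevoflurane did not pass 2-fold as deposited and did after scaling, when 1 member was called lower. At that scaling 5.68% of all genes were called in either direction. *Cbs*, cystathionine beta-synthase, had 129 and 119 TPM with sevoflurane and 158 and 104 TPM with desflurane, again with both 6 h livers below both controls, by a smaller margin. *Gnmt*, the glycine N-methyltransferase that disposes of surplus S-adenosylmethionine, had 240 and 204 TPM with sevoflurane and 177 and 194 TPM with desflurane, so that controls and 6 h livers were mixed. *Cdo1*, cysteine dioxygenase, had 1106 and 816 TPM with sevoflurane and 1012 and 1094 TPM with desflurane and was also mixed. *Csad*, which makes the taurine precursor hypotaurine, had 137 and 169 TPM with sevoflurane but 214 and 118 TPM with desflurane. The desflurane value was 1.81-fold below its own control and 1.16-fold below the other, and the desflurane control was the highest of the 4 livers.

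Among the aminotransferases of alanine and aspartate, the cytosolic aspartate enzyme stood apart from its mitochondrial counterpart. *Got1* (rn6 chr1:263246248-263269762, minus strand), the cytosolic glutamic-oxaloacetic transaminase, had 38.8 and 189 TPM with sevoflurane and 40.3 and 147 TPM with desflurane. The fold changes against the own control were 4.88 with sevoflurane, the largest of the 37 members, and 3.65 with desflurane, next to the 3.66 of *Bhmt*. The controls differed by 1.04-fold and both 6 h livers were far above them. *Got2*, the mitochondrial enzyme, had values of 240, 235, 223 and 238 TPM in the sevoflurane control, sevoflurane 6 h, desflurane control and desflurane 6 h livers, within 1.07-fold of the own control with each agent. *Gpt2*, the mitochondrial alanine aminotransferase, had 114 and 192 TPM with sevoflurane and 123 and 175 TPM with desflurane. Both 6 h livers were above both controls, by 1.68-fold and 1.42-fold over their own. *Gpt*, the cytosolic alanine enzyme, had 29.0 and 31.4 TPM with sevoflurane and 17.1 and 28.3 TPM with desflurane, and only the desflurane control stood apart from the other livers.

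*Aass* (rn6 chr4:50152005-50208935, minus strand), the bifunctional synthase that starts lysine breakdown in mitochondria, had 104 and 248 TPM with sevoflurane and 127 and 252 TPM with desflurane. It was upregulated 2.38-fold by sevoflurane and was 1.99-fold higher with desflurane, just under the limit, and the 6 h livers differed from each other by 1.02-fold. In each liver the authors' transcript assembly split the locus into 2 pieces, with 90.4 and 134 TPM in the control and 214 and 313 TPM at 6 h for sevoflurane, and with 110 and 158 TPM, then 213 and 328 TPM, for desflurane. Both pieces of the gene were therefore higher in both 6 h livers.

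*Sds* (rn6 chr12:41620430-41627741, minus strand), serine dehydratase, which turns serine into pyruvate, had 28.8 and 109 TPM with sevoflurane and 20.2 and 44.6 TPM with desflurane. The fold changes against the own control were 3.77 and 2.21, and against the other control 5.38 and 1.55. Both 6 h livers were above both controls, but the lower one exceeded the higher control by 1.55-fold, or 1.44-fold after scaling. *Sds* was also the only member called between the 6 h livers, 2.44-fold lower with desflurane, beside 1.17% of all genes lower and 2.76% higher, with 0 members higher. After scaling *Tat* passed the limit too, which made 2 members lower with desflurane, beside 3.66% of all genes in either direction.

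In the tryptophan path, the entry enzyme was the only one of the 6 members to pass 2-fold against a control. *Tdo2* (rn6 chr2:180897059-180914919, minus strand), tryptophan dioxygenase, had 410 and 623 TPM with sevoflurane and 343 and 816 TPM with desflurane. It was 1.52-fold higher with sevoflurane and was upregulated 2.38-fold by desflurane, with both 6 h livers above both controls. *Afmid*, the kynurenine formamidase, had values of 54.5, 67.6, 57.5 and 56.0 TPM in the sevoflurane control, sevoflurane 6 h, desflurane control and desflurane 6 h livers. *Kmo*, kynurenine monooxygenase, had 131 and 84.7 TPM with sevoflurane and 105 and 113 TPM with desflurane, so that the sevoflurane 6 h liver was lowest and its control highest. *Kynu*, kynureninase, ranged from 144 to 175 TPM with the groups mixed. *Haao*, the hydroxyanthranilate dioxygenase, had 168 and 224 TPM with sevoflurane and 173 and 219 TPM with desflurane, higher at 6 h by 1.335-fold and 1.27-fold. *Acmsd*, which diverts the path away from NAD synthesis, was at 4.29 and 3.64 TPM with sevoflurane and at 2.46 and 4.77 TPM with desflurane, and only the desflurane control was apart from the rest.

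At the entry of the tyrosine path, the sevoflurane 6 h liver stood apart from the desflurane 6 h liver. *Tat* (rn6 chr19:41675639-41686195, minus strand), tyrosine aminotransferase, had 234 and 464 TPM with sevoflurane and 212 and 241 TPM with desflurane. It was 1.99-fold higher than its own control and 2.19-fold higher than the other control with sevoflurane, and 1.14-fold and 1.03-fold higher with desflurane. The sevoflurane 6 h liver was alone, and the other 3 livers lay within 1.14-fold of each other. *Hpd*, hydroxyphenylpyruvate dioxygenase, which takes up the product of *Tat*, was among the most abundant members at 1331, 1155, 1080 and 1228 TPM, with the groups mixed. *Hgd*, homogentisate dioxygenase, was at 195 and 162 TPM with sevoflurane and at 202 and 162 TPM with desflurane, below both controls at 6 h by at least 1.21-fold. *Fah*, fumarylacetoacetase, ranged from 368 to 456 TPM and was mixed.

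In the histidine path, *Hal*, which removes ammonia from histidine, and *Amdhd1*, the imidazolonepropionase, were mixed, at 83.0 to 113 TPM and 64.7 to 86.9 TPM. *Ftcd* (rn6 chr20:12806957-12820466, minus strand), which ends the path by passing a formimino group to tetrahydrofolate, had 140 and 221 TPM with sevoflurane and 108 and 216 TPM with desflurane. The 6 h livers were close to each other and above both controls, 1.58-fold over the own control with sevoflurane and 1.999-fold with desflurane, just under the limit. After scaling, the lower 6 h value exceeded the higher control by 1.44-fold.

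In the branched chain group, all 7 members stayed within 1.5-fold of both controls with both agents by their annotated rows, as did the 2 members of the proline and hydroxyproline group. *Bckdha*, a subunit of the branched chain keto acid dehydrogenase, had 135 and 149 TPM with sevoflurane and 127 and 161 TPM with desflurane. Its partners *Bckdhb* and *Dbt*, the beta subunit and the acyltransferase core, ranged from 89.3 to 103 TPM and from 41.2 to 47.5 TPM. *Ivd*, the isovaleryl-CoA dehydrogenase of leucine breakdown, was lowest after sevoflurane (85.0 TPM, beside 110, 100.3 and 98.6 TPM). *Mccc1*, a methylcrotonyl-CoA carboxylase subunit, was highest after desflurane (31.4 TPM, beside 23.6, 24.6 and 23.5 TPM), whereas its partner *Mccc2* ranged from 39.9 to 46.9 TPM. *Bcat2*, the mitochondrial branched chain aminotransferase, was the least expressed member at 2.26 to 3.67 TPM, and its groups were mixed. In the authors' transcript assembly, rows over 3.12% to 67.3% of its locus had 1.31 and 2.46 TPM with sevoflurane and 2.09 and 0.787 TPM with desflurane. The size of its change thus depended on the row used.

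For proline and hydroxyproline, *Prodh2*, the hydroxyproline dehydrogenase, had 73.1 and 72.6 TPM with sevoflurane and 60.6 and 86.8 TPM with desflurane. In the authors' transcript assembly, the row over 95.5% of its locus had 74.4 and 66.5 TPM with sevoflurane and 84.3 and 47.7 TPM with desflurane. The direction with desflurane thus depended on the row used. *Aldh4a1*, the dehydrogenase that both paths share, had 216 and 174 TPM with sevoflurane and 218 and 198 TPM with desflurane, below both controls by a small margin. *Agxt*, which turns glyoxylate into glycine, had 77.3 and 108 TPM with sevoflurane and 92.8 and 103 TPM with desflurane. *Dao*, D-amino acid oxidase, had 55.8 and 53.0 TPM with sevoflurane and 28.04 and 56.0 TPM with desflurane. Its desflurane control was the only liver apart from the others, so the ratio of 1.9975 to the own control became 1.0035 to the sevoflurane control.

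**Figure D3:**
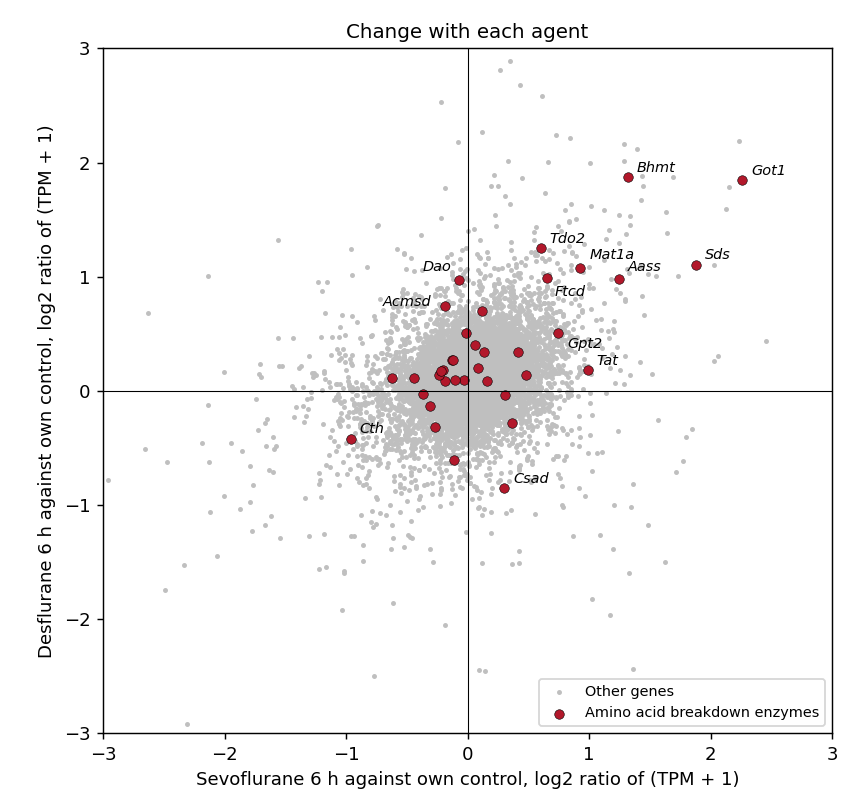
Log2 ratio of (TPM + 1) to the own control, sevoflurane on the horizontal and desflurane on the vertical axis, for 9136 genes above 2 TPM in all 4 livers (10 lie outside the axes), with the 37 members in red. *Got1*, *Bhmt*, *Sds*, *Aass* and *Mat1a* lie in the upper right, *Tat* lies near the horizontal axis, and most members lie within the cloud of other genes.

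Because all members were measured in the same library, their balance can be given within each liver without any scaling between livers. The 10 pairs calculated were chosen after the values were seen. The ratio of *Bhmt* to *Cbs*, the enzymes that compete for homocysteine, went from 9.63 to 26.02 with sevoflurane and from 6.94 to 38.7 with desflurane. *Mat1a* to *Cth* went from 1.74 to 6.47 with sevoflurane and from 1.70 to 4.79 with desflurane. For both pairs the 6 h livers were well above the controls, which were close to each other for *Mat1a* to *Cth* only. The first gene of each pair had been seen higher and the second lower at 6 h, so this rise was known beforehand. *Got1* to *Got2* was 0.161 and 0.181 in the controls and 0.805 and 0.620 at 6 h, so that the cytosolic transcript approached the mitochondrial one. *Tdo2* to *Kmo* was 3.13 and 3.28 in the controls and 7.35 and 7.20 at 6 h. *Aass* to *Aldh4a1* was 0.482 and 0.583 in the controls and 1.43 and 1.27 at 6 h. *Tat* to *Hpd* was 0.402 after sevoflurane, whereas it was 0.176, 0.196 and 0.196 in the sevoflurane control, desflurane control and desflurane 6 h livers. *Ftcd* to *Hal* went from 1.55 to 2.66 with sevoflurane and from 1.16 to 1.92 with desflurane. *Bckdha* to *Bckdhb*, subunits of the same enzyme, stayed between 1.42 and 1.69 in the 4 livers. The last 2 pairs were mixed, with *Cdo1* to *Csad* going from 8.06 to 4.81 with sevoflurane and from 4.74 to 9.27 with desflurane, and *Gpt2* to *Gpt* from 3.94 to 6.11 and from 7.22 to 6.17.

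**Figure D4:**
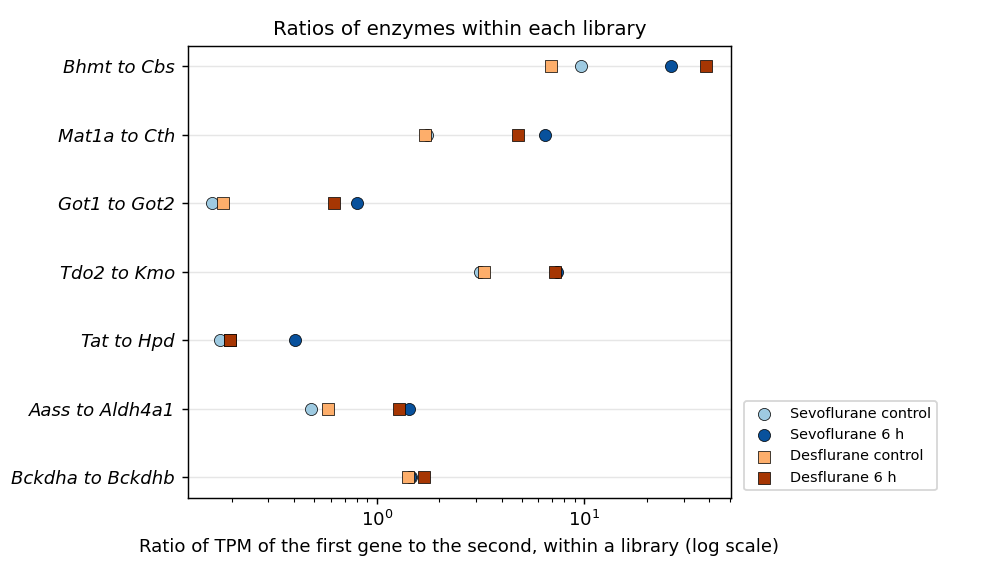
Ratio of the TPM of 2 enzymes within each of the 4 livers (log scale, 1 point per library) for 7 of the 10 pairs. The 6 h points lie to the right of both control points for the upper 4 pairs and for *Aass* to *Aldh4a1*, the *Tat* to *Hpd* ratio is high in the sevoflurane 6 h liver alone (0.402), and the *Bckdha* to *Bckdhb* points lie between 1.42 and 1.69.

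Summed over the list, the members made up 8780 and 8166 TPM in the controls of sevoflurane and desflurane, and 11470 and 13043 TPM at 6 h, that is 1.11% and 1.05% of the annotated signal in the controls and 1.43% and 1.61% at 6 h. Most of that difference was carried by *Bhmt* and *Mat1a*. Without them the remaining 35 members summed to 6836 and 6354 TPM in the controls and to 7042 and 7522 TPM at 6 h, ratios of 1.03 with sevoflurane and 1.18 with desflurane to the own control. Among the groups, the methionine and cysteine enzymes had the highest sum, 3960 and 5943 TPM with sevoflurane and 3792 and 7345 TPM with desflurane. The branched chain sum was 454 and 451 TPM with sevoflurane and 426 and 483 TPM with desflurane.

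Many amino acid enzymes are zoned along the liver lobule, with higher levels near the portal vein. The sum of 6 periportal markers was 3801 and 5389 TPM with sevoflurane and 2904 and 5614 TPM with desflurane, and that of 6 pericentral markers 4920 and 3814 TPM with sevoflurane and 3043 and 4998 TPM with desflurane. With sevoflurane 4 of the 6 periportal markers were higher and 2 lower, and with desflurane 5 were higher and 1 lower. Of the pericentral markers 2 were higher and 4 lower with sevoflurane, and 4 were higher and 2 lower with desflurane. Their part in the values of the members was not tested.

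A wider list of amino acid genes outside the members was read in the same way, and 56 of its 59 genes had a row, 53 of them above the TPM limit in each comparison. Sevoflurane upregulated 2 of these 53 (3.77%), *Asrgl1* and *Kyat1*, beside 2.23% of all genes, and downregulated 0, beside 3.3%. Desflurane upregulated 0, beside 2.79% of all genes, and downregulated 1 (1.89%), *Asrgl1*, beside 1.48%. *Asrgl1*, an asparaginase-like enzyme, had 7.07 and 19.5 TPM with sevoflurane and 19.0 and 8.89 TPM with desflurane, so that the controls differed by 2.69-fold and the groups overlapped. *Kyat1*, a kynurenine aminotransferase, had 22.8 and 45.7 TPM with sevoflurane and 30.01 and 38.7 TPM with desflurane, with both 6 h livers above both controls. Among the most abundant genes of that list were *Glud1*, glutamate dehydrogenase, at 589, 489, 475 and 606 TPM, and *Aldh6a1*, the dehydrogenase of valine breakdown, at 491, 464, 504 and 531 TPM, in the order sevoflurane control, sevoflurane 6 h, desflurane control and desflurane 6 h. The 4 livers were mixed for both of these genes. Both 6 h livers exceeded both controls by more than 1.5-fold for 0 of the 53 genes, beside 1.76% of all genes. Against the other control 0 of these genes were called with sevoflurane, beside 2.52% of all genes higher and 2.59% lower. With desflurane 1 was higher (1.89%, beside 2.84% of all genes) and 0 were lower, beside 1.58%. Counts this small do not set the list apart from all genes. The gene called was *Ppm1k*, the phosphatase that activates the branched chain keto acid dehydrogenase, named here after its values were seen. It had 26.4 and 33.2 TPM with sevoflurane and 28.2 and 56.1 TPM with desflurane, 2.13-fold above the sevoflurane control and 1.99-fold above its own.

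Of 12 transcription factors and coactivators known to act on these enzymes, 0 were called with sevoflurane, beside 2.23% of all genes up and 3.3% down, and 2 (16.7%) were upregulated with desflurane, beside 2.79% of all genes. *Ppargc1a*, a coactivator of the fasting response, had 4.23 and 5.08 TPM with sevoflurane and 2.90 and 13.5 TPM with desflurane, and the desflurane 6 h liver was also 2.65-fold above the sevoflurane 6 h liver. *Klf15*, a factor known for its control of amino acid breakdown, had 61.3 and 60.5 TPM with sevoflurane and 31.7 and 66.6 TPM with desflurane. Only the desflurane control of *Klf15* was apart from the other livers, and the ratio of 2.098 to that control became 1.09 against the sevoflurane control. Median-of-ratios scaling, which took the larger *Mat1a* ratio from 2.11 to 1.93 with desflurane, would also take *Klf15* under the 2-fold limit.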

How the data were processed

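The livers of 4 rats, 1 for each condition, were sequenced from total RNA with a stranded library. According to the study's methods, the authors used sickle for trimming (quality 30, length 20), HISAT2 2.1.0 for alignment to the rn6 genome, SAMtools 1.10 for sorting, and StringTie 2.1.2 with the refGene annotation of rn6 for quantification. The deposited tables hold coverage, FPKM and TPM for each gene, and each table lists annotated genes and newly assembled transcripts of the same loci. The deposited TPM signal of the assembled rows sums to 1000000 in each library, and that of the annotated rows to 779824 to 813454 on the same scale, so the column as a whole exceeds the usual TPM total. Read counts were not used here.

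Annotated rows longer than 200 base pairs were kept (495 to 518 shorter annotated rows were removed, as in the study) and rows that shared a symbol had their TPM added up. Genes were called when TPM was above 2 in the higher library and the ratio was above 2, with no pseudocount, and medians used log2((TPM + 1)/(TPM + 1)). Each 6 h library was set against its own control and against the other control, and the 2 controls and the 2 6 h libraries against each other. With 1 library per condition no test, SD or p-value was calculated. The depth of 4.47 to 5.40 aligned Gb was estimated from coverage and FPKM.

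All members may be named. Other amino acid genes and regulators were named when called against their own control or among the 3 most abundant of the pathway list, and any other gene is marked; 1 gene that this rule names is not reported here. The members and the gene lists were chosen with earlier results of these data known. Alternatives were other TPM, fold and coverage limits, a pseudocount, the mean of both controls, median-of-ratios scaling, a common sum, FPKM, no length filter, the highest row of a symbol, and, added after seeing the data, assembled rows and other margins beyond both controls. The assembled row of the same strand was found for 148 of 148 pairs of member and library, and 116 were within 10% of the annotated TPM. The calling script was tested on simulated data, which did not model the spread between animals and so says nothing of the error of calls from 1 animal per condition. Promoters were taken from RefSeq (29 of 37 members matched). Python 3.11.15, numpy 2.4.6, pandas 2.3.3 and matplotlib 3.10.9 were used. *Uroc1* and *Prodh* were not analysed here.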

Additional observations from a re-analysis of the deposited data

Results flagged for a closer look

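Several genes moved in opposite directions with the agents when each was set against its own control, by more than 1.5-fold with at least 1 agent. Members that did so by less, such as *Bcat2* (1.40 and 0.76), are not listed. With 1 liver per condition the difference between agents was not tested. Among the members, the fold with desflurane divided by the fold with sevoflurane was 1.67 for *Kmo*, 2.29 for *Acmsd*, 2.104 for *Dao* and 0.447 for *Csad*. Of the other genes named, it was 0.170 for *Asrgl1* and 2.13 for *Klf15*. When the controls were swapped between agents, opposite directions were no longer seen for any of these 6 genes. *Dao* was then 1.89-fold higher with sevoflurane and 1.0035-fold with desflurane, *Acmsd* 1.48-fold and 1.11-fold, *Klf15* 1.91-fold and 1.09-fold, and *Asrgl1* 1.03-fold and 1.26-fold. *Kmo* was at 0.810 and 0.867 of the other control and *Csad* at 0.793 and 0.861. After median-of-ratios scaling, *Kmo* was below its own control with both agents, at 0.626 with sevoflurane and 0.993 with desflurane. By assembled rows *Csad* was lower with both agents, from 137 to 125 TPM with sevoflurane and from 173 to 109 TPM with desflurane.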

How the results depend on the processing

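With 1 library per condition, neither replicate error nor a left-out replicate could be given, and no paired analysis was possible because each condition has 1 library and the result comes from no test. The members' counts and medians were recomputed under each alternative, and 107 of these values stayed within 1.5 times the main count, or within 0.1 of the main median on the log2 scale, while 25 did not. All 63 recomputed folds of called members kept their direction, but most of the settings could not have reversed them. Each member had 1 row, so its values without the length filter and with the highest row equalled the main values. This holds for the counts and medians as well as the folds. All members were above 2 TPM in every liver, so a TPM limit of 1 could not change a count. Part of the 107 unchanged values was thus fixed in advance. The scalings, the common sum and FPKM changed all genes of a library by the same factor. Only the control of the other agent and the assembled rows could have reversed a fold. *Got1* and *Bhmt* were the 2 members with both 6 h livers above both controls by a margin of 2-fold, chosen after seeing the data, beside 0.901% of all genes in either direction.

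With a fold limit of 1.5, the members called were 11 (sevoflurane) and 12 (desflurane) against the own control, 12 and 8 against the other control, 4 between controls and 4 between the 6 h livers, beside 16.1%, 14.6%, 15.9%, 14.2%, 7.94% and 13% of all genes. With a limit of 3 they were 2, 2, 2 and 2 against controls and 0 between the 6 h livers, beside 2%, 1.36%, 1.74%, 1.28% and 1.22% of all genes. With FPKM the counts were 1 between controls (*Dao*), 2 between the 6 h livers and 4 beyond both controls by 1.5-fold. The shares of all genes in either direction were 1.73%, 2.5% and 2.22% in the same order. With median-of-ratios scaling the last 2 counts were 2 and 4, beside 3.66% and 2.77% of all genes. FPKM called 9 members higher and 0 lower with sevoflurane against the other control, in place of 5 and 1. Over all genes the calls in that comparison were 261 up and 106 down by FPKM, in place of 246 and 253. Assembled rows gave 1 between controls and 2 between the 6 h livers. With desflurane against its own control they gave 6 higher and 1 lower (*Bcat2*), in place of 5 and 0. These counts have no share of all genes because assembled rows replaced the member loci only. After median-of-ratios scaling the median log2 change was 0.0583 with desflurane against its own control and 0.0233 against the other. By FPKM it was 0.3226 with sevoflurane and -0.1183 with desflurane against the other control, -0.2375 between controls and -0.1168 between the 6 h livers. The medians against the other control with desflurane and between the 6 h livers thus changed sign by FPKM. The medians of all genes shifted in the same directions, by 0.12, -0.24, -0.16 and -0.20 in the same order. FPKM differs from TPM by 1 factor per library, so these shifts are shared by all genes. The members' median minus that of all genes was 0.144, 0.030, -0.049 and 0.019 by TPM. By FPKM it was 0.138, 0.023, -0.053 and 0.020. What set the factors was not tested. Members of low coverage, *Bcat2* and *Acmsd*, were limited most by depth.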
